A study of Bos taurus with 6 samples.

Results

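The heat shock proteins and cochaperones of bovine loin muscle were followed between 1 month and 24 months of age. Members were the probe sets whose only gene symbol in the platform's annotation names an HSPA, HSPB, HSPD, HSPE, HSPH, HSP90, DNAJ or CCT gene, or is CRYAB, TCP1, HSF1 or HSF2, and which had a present call on 3 or more of the 6 arrays. The array holds 84 such probe sets for 56 genes before the filter on present calls. Of these, 68 probe sets for 52 genes passed the filter, among 6423 genes with a single symbol that passed it in all. Each gene was read from its brightest probe set. The naming rule and the filter used no difference between the ages, but the members were chosen with earlier results of these data known.

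The tissue was longissimus dorsi, a loin muscle, from bulls of the Chinese Red Steppe breed. There were 9 bulls of each age, 18 in all, and every Affymetrix bovine array received mixed RNA from 3 of them, so each age has 3 arrays. The labels number the calf pools 1, 2 and 3, and the pools of older bulls 2, 3 and 4. No treatment or genotype is given for either age, and a pool hides the differences between its bulls.

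Chaperones bind unfolded or partly folded proteins, keep them from clumping and help them reach their working shape. Small heat shock proteins hold unfolding proteins without using ATP, and in muscle several of them sit on desmin, actin and titin filaments. HSP70 proteins take substrates from J proteins, which stimulate their ATPase, and HSP110 proteins reset HSP70 by exchanging its nucleotide. HSP90 matures kinases, receptors and muscle myosin, while the chaperonins enclose a protein in a closed chamber, the cytosolic ring being the folding machine of actin and tubulin. Heat shock factors are the transcription factors that switch many of these genes on.

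With age, small heat shock proteins HSPB8 and HSPB2, the HSP70 gene HSPA2 and the J protein gene DNAJC9 rose. The chaperonin subunits CCT3, CCT4, HSPD1 and HSPE1, the nucleotide exchange factor HSPH1 and the reticulum HSP90 gene HSP90B1 fell. Thus 10 of the 52 genes were called at an adjusted p under 0.05 by limma, which is 19.2%, beside 17.0% of all 6423 genes. The 4 higher genes were 7.7% of the members, beside 11.3% of all genes, and the 6 lower genes were 11.5%, beside 5.78% of all genes. The arrays of the ages did not overlap for 22 members, or 42.3%, beside 41.9% of all genes. Of the 22, 13 were lower at 24 months and 9 higher. Of the 2691 such genes among all 6423, 1161 were lower and 1530 higher. Counted without regard to direction, the called and non-overlapping shares of the members thus lay near the background. By direction, members leaned lower where all genes leaned higher, on few genes, and this difference was not tested. The median change, given throughout on the log2(intensity + 16) scale as 24 months minus 1 month, was -0.04 over the members and 0.03 over all genes, with 25 members above 0 and 27 below.

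**Figure D1:**
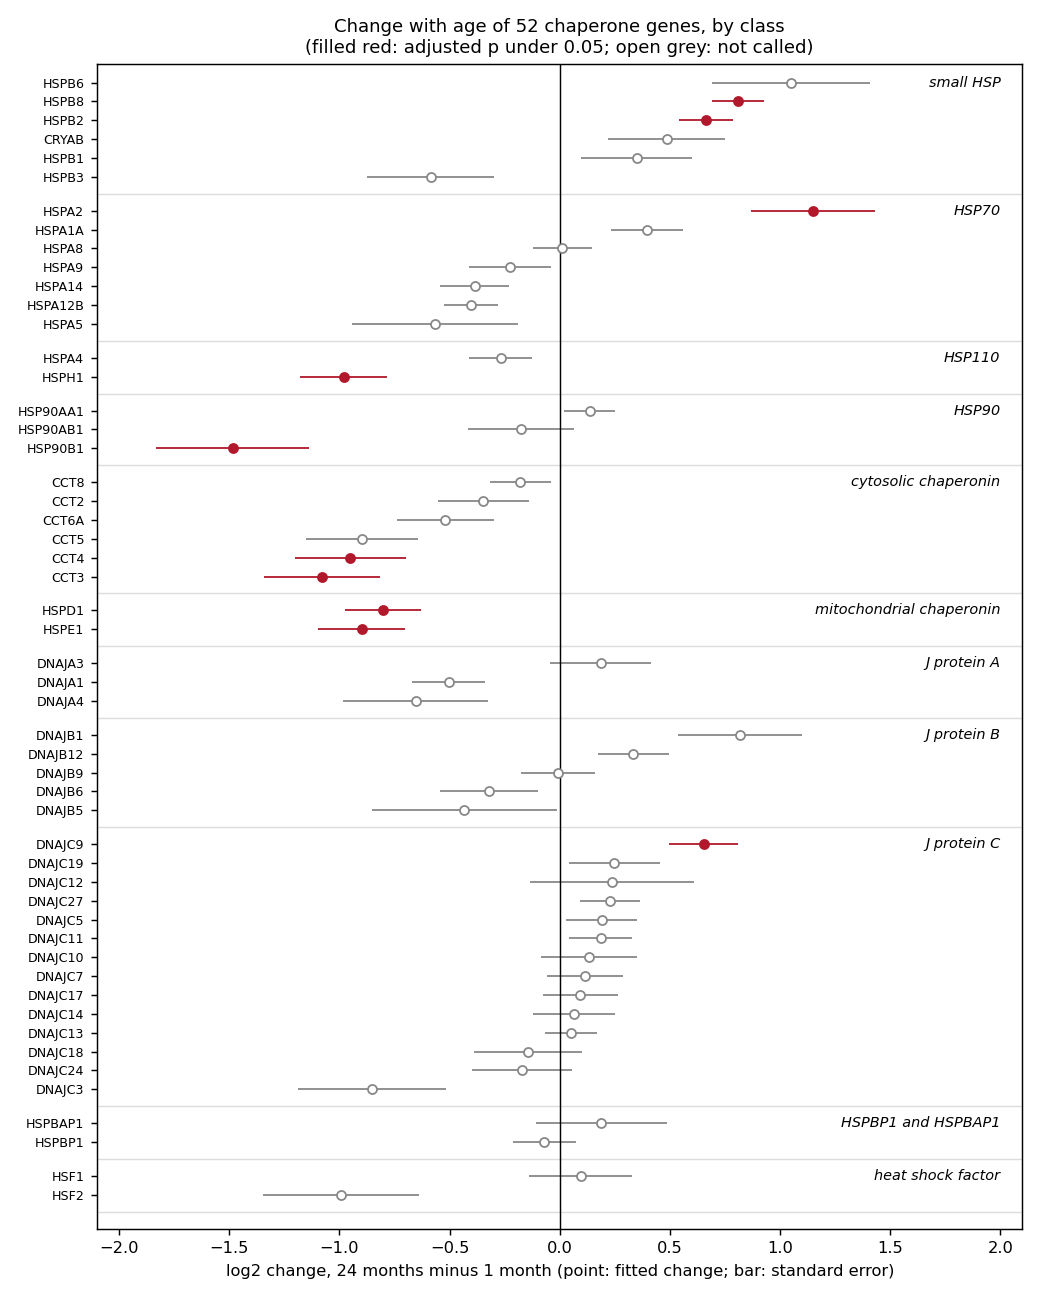
Each point is 1 chaperone gene, placed by its log2 change from 1 month to 24 months on its brightest probe set, with bars for the standard error of the limma fit and filled red points for called genes, and genes are grouped by class. All 6 cytosolic and both mitochondrial chaperonin genes lie below 0, and 5 of the 6 small heat shock protein genes lie above 0.

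The second deposited table gave 9 called members, 8 of them shared with the main table, and CCT3 and HSPA2 lost their calls at adjusted p of 0.061 and 0.106 by limma. There, 12.4% of all probe sets were called. The number of calls depended on the array left out, for the members as for all probe sets, and fell most without a 24-month pool. Leaving out the 1-month pools 1, 2 or 3 gave 13, 9 and 18 called members, and leaving out the 24-month pools 2, 3 or 4 gave 2, 1 and 1. The whole array moved the same way, with 19.9%, 17.4% and 26.3% of probe sets called without a 1-month pool and 5.22%, 4.44% and 3.98% without a 24-month pool, beside 19% with all arrays. HSPB8 was the only member called in all 6 of these fits, and it was not called with the actin 3' to 5' ratio as a covariate. Array quality also differed between the ages. The share of probe sets called present was 49.0% to 52.5% at 1 month and 54.8% to 56.3% at 24 months, and the log2 ratio of 3' to 5' actin signal was 0.46 to 0.85 at 1 month and 0.22 to 0.26 at 24 months. Neither measure overlapped between the ages, so age and this difference in quality cannot be told apart by group. The summed signal of 8 skeletal muscle markers was 56116 to 57691 at 1 month and 71518 to 73010 at 24 months, and all 8 were called present. Summed fibroblast markers reached 20223 in the 1-month pool 1 and lay between 3422 and 5081 on the other 5 arrays. Summed red cell markers were 185 to 2472 at 1 month and 69.2 to 74.6 at 24 months. Of these, HBB was called present only at 1 month, HBA on 1 array and ALAS2 on 0 arrays. The part of these marker signals in the results was not tested. In whole muscle, fewer cells of a type and less RNA per cell cannot be told apart.

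The small heat shock proteins leaned upwards, with a median change of 0.58 over 6 genes, of which 2 rose and 0 fell. Beside the counts of this and the other classes, 11.3% of all 6423 genes were called higher and 5.78% lower. HSPB8, which works with BAG3 in the clearance of damaged proteins at the Z-disc, had intensities of 2447, 2642 and 2482 in the 1-month pools and 4695, 4274 and 4345 in the 24-month pools. All older pools stood well above all younger ones, and the pools of each age lay close together. The rise was 0.81 ± 0.12 (SE, n = 3 pools per age), or 1.75-fold, with an adjusted p of 0.00746 by limma, and the adjusted p stayed between 0.00727 and 0.0488 whichever array was left out. HSPB2, known for binding the myotonic dystrophy kinase, had intensities of 1021, 912 and 1070.1 at 1 month and 1632, 1607 and 1543 at 24 months. Its older pools also stood above all younger pools with little spread. The rise was 0.67 ± 0.12, or 1.59-fold, with an adjusted p of 0.0146 by limma, and the call was lost without any of the 24-month pools, where p reached 0.0728.

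The remaining small heat shock proteins did not pass the test. HSPB6, a small heat shock protein abundant in muscle, had 201, 558 and 509.9 at 1 month, against 814, 786 and 853 at 24 months. The older pools were all higher, and the 1-month pool 1 stood far below the rest. The change was 1.05 ± 0.36 with an adjusted p of 0.084, and without that pool the change was 0.60 and called in limma at an adjusted p of 0.0246. CRYAB, the lens and muscle crystallin that guards desmin, had 2746, 3836 and 5885 at 1 month, against 5934, 5236 and 5491 at 24 months. The 1-month pool 3 was as high as the older pools, so the ages overlapped, and HSPB1, the filament-binding small heat shock protein, also had an overlap through that pool, with 2878, 3187 and 5491 against 5279, 4389 and 4504. Their changes were 0.48 ± 0.27 and 0.35 ± 0.25, with adjusted p of 0.236 and 0.359, and both were called higher by limma without the 1-month pool 3, at adjusted p of 0.0236 and 0.0222. HSPB3, which forms complexes with HSPB2, was the member of the class with a change below 0, at -0.59 ± 0.29 and an adjusted p of 0.191. On RefSeq's bovine assembly ARS-UCD2.0 the genes CRYAB and HSPB2 are neighbours.

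The cytosolic chaperonin showed the opposite sign in all 6 of its measured subunits, with a median change of -0.71, and 2 subunits fell. CCT3 had intensities of 851, 906 and 1667 in the 1-month pools and 476, 559.9 and 488 in the 24-month pools. Every younger pool lay above every older one, with the 1-month pool 3 far the highest. It fell by 1.08 ± 0.26, or 2.11-fold, with an adjusted p of 0.0325 by limma. CCT4 followed the same order, with 1082, 1102 and 2033 at 1 month and 657, 723 and 686 at 24 months, a change of -0.95 ± 0.25 and an adjusted p of 0.0414. CCT5, with 703, 847 and 1423 against 488, 529 and 487, also kept the ages apart but missed the threshold, at -0.90 ± 0.25 and an adjusted p of 0.0501. The calls of CCT3 and CCT4 were lost without any of the 24-month pools, where p reached 0.118 and 0.137. Without the 1-month pool 3, where these genes were highest, the changes were -0.77 for CCT3 and -0.65 for CCT4, and both were called.

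The other subunits CCT6A, CCT2 and CCT8 had changes of -0.52 ± 0.22, -0.35 ± 0.21 and -0.18 ± 0.14, with adjusted p of 0.14, 0.271 and 0.396, and their ages overlapped. No probe set with a single symbol was found for TCP1 or CCT7, the ring's other subunits among the symbols sought. The subunits thus shared a sign, and the differences in size between them were not tested.

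**Figure D2:**
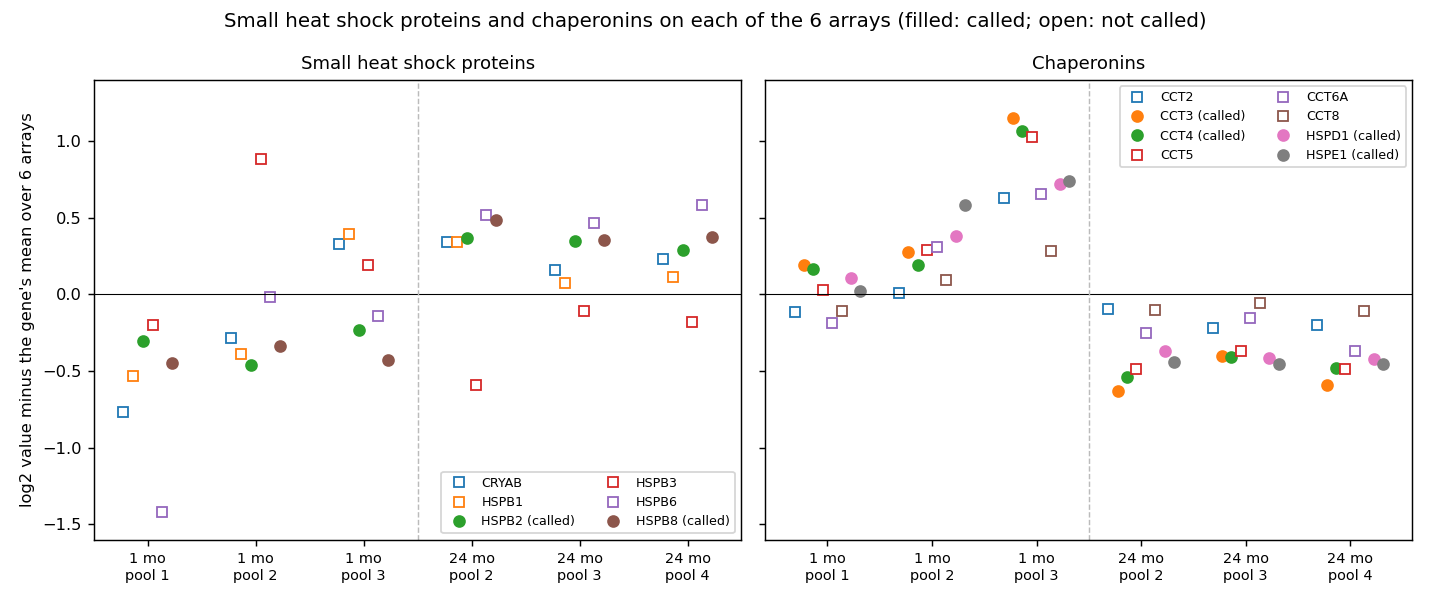
For each small heat shock protein gene (left) and chaperonin gene (right), the log2 value on each of the 6 arrays is drawn as its difference from the gene's mean over the arrays, with filled symbols for called genes. The chaperonin genes lie highest in the 1-month pool 3, and HSPB6 lies lowest in the 1-month pool 1.

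Both genes of the mitochondrial chaperonin fell. HSPD1, the barrel-forming chaperonin of the mitochondrial matrix, had 2106, 2542 and 3218 at 1 month and 1508, 1457 and 1456 at 24 months. HSPE1, the lid that closes this barrel, had 1829, 2699 and 3014 at 1 month and 1318, 1309.6 and 1308 at 24 months. In both genes the older pools were nearly equal and the younger pools were spread out above them. The changes were -0.80 ± 0.17 and -0.90 ± 0.20, or 1.74-fold and 1.86-fold lower, with adjusted p of 0.0228 and 0.0244 by limma. The calls were lost without any of the 24-month pools, and that of HSPE1 also without the 1-month pool 2, where p reached 0.0958 for HSPD1 and 0.0961 for HSPE1. HSPD1 and HSPE1 are neighbours on ARS-UCD2.0. The other 4 mitochondrial members were not called, and their difference from HSPD1 and HSPE1 was not tested. HSPA9, the matrix HSP70, gave -0.23 ± 0.19, and the J proteins DNAJA3, DNAJC11 and DNAJC19 gave 0.19 ± 0.23, 0.19 ± 0.14 and 0.25 ± 0.21, with adjusted p of 0.419, 0.601, 0.387 and 0.427.

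Of the HSP90 genes, the one of the endoplasmic reticulum fell. HSP90B1, also called GRP94, folds secreted and membrane proteins such as integrins and insulin-like growth factors. Its intensities were 1135, 1911 and 666 at 1 month, against 378, 381 and 425 at 24 months. The ages did not overlap, but the younger pools differed widely and pool 3 was nearest to the older ones. The change was -1.48 ± 0.35, or 2.80-fold lower, with an adjusted p of 0.0294 by limma. It was the farthest below 0 of the 52 genes, and the call was lost without the 1-month pool 1 or any 24-month pool, where p reached 0.108.

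The cytosolic HSP90 genes did not pass the test on their brightest probe sets. HSP90AA1, the stress-inducible form that also assists myosin assembly in muscle, had 2844, 2777 and 2741 at 1 month and 3146, 2852 and 3202 at 24 months, a change of 0.14 ± 0.12 with an adjusted p of 0.446. Its dimmer probe set was called higher, with 515, 881 and 723 against 1226, 1090.1 and 1272, a change of 0.78 ± 0.21 and an adjusted p of 0.0421 by limma. The probe sets agreed in sign and differed in size, and which one better reports the gene was not tested. HSP90AB1, the constitutive form, gave -0.18 ± 0.24 with an adjusted p of 0.639 on a probe set that may also bind related transcripts, and the 95% confidence interval ran from -0.75 to 0.40.

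Chaperones of the endoplasmic reticulum were also read together. HSPA5, known as BiP, is the HSP70 of this compartment, and had 2121, 2978 and 968 at 1 month against 1187, 1276 and 1233 at 24 months. The 1-month pool 3 lay below every older pool while pools 1 and 2 lay above them, and the order of the younger pools, with pool 2 highest and pool 3 lowest, was that of HSP90B1. The change was -0.57 ± 0.38 with an adjusted p of 0.32, the gene's dimmer probe set gave 0.34, and without the 1-month pool 3 limma called a fall at an adjusted p of 0.00936. DNAJC3, a J protein that works with BiP, had 181, 198 and 459 against 127, 160.4 and 119. Here the 1-month pool 3 was the highest, and the change was -0.85 ± 0.34 with an adjusted p of 0.121, or -0.45 with an adjusted p of 0.0824 by limma without that pool. Over the 6 reticulum members the median change was -0.29, and HSP90B1 was the 1 called. Of the 6 changes, 4 lay below 0 and 2 above, from -1.48 to 0.33.

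Among the HSP70 genes, 1 of 7 rose and 0 fell, with a median change of -0.23. HSPA2, an HSP70 best known from male germ cells, rose from 57.1, 87.8 and 148 at 1 month to 244, 212 and 213 at 24 months. All older pools were higher, and the younger pools differed by more than the older ones. The probe set had a present call on 2 of the 3 1-month arrays and on all 3 at 24 months. The rise was 1.15 ± 0.28, or 2.22-fold, with an adjusted p of 0.0335 by limma, and it was the farthest above 0 of the 52 genes. The call was lost without the 1-month pool 2 or any 24-month pool, where p reached 0.121.

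The best-known HSP70 genes of the stress response and of resting cells did not pass the test. HSPA1A, the heat-inducible HSP70, had 1930.2, 2718 and 2605 at 1 month, against 3123, 3287 and 3051 at 24 months. The older pools were all higher, yet the change of 0.40 ± 0.16 had an adjusted p of 0.13. The other 4 tested probe sets under this symbol gave changes from -0.18 to 0.80, with 0 called by limma. This gene has a near-identical copy, and the probe sets named for it carry different gene identifiers, so the value is uncertain. HSPA8, the constitutive HSP70 that also uncoats clathrin, had 3309, 3864 and 3119 against 3645, 3388 and 3301. These values overlapped fully, with a change of 0.01 ± 0.13, an adjusted p of 0.963 and a 95% confidence interval from -0.31 to 0.33.

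The more distant HSP70 genes HSPA12B and HSPA14 had changes of -0.40 ± 0.12 and -0.39 ± 0.16, with adjusted p of 0.0615 and 0.131. HSPA12B, known from endothelial cells, had 179, 178 and 188 at 1 month and 125, 128 and 148 at 24 months, with the ages apart. The summed signal of 4 endothelial markers, of which KDR and VWF were not called present on any array, was 513 to 673 at 1 month and 392 to 436 at 24 months, and its part in the change of HSPA12B was not tested. HSPA14, a ribosome-associated HSP70, had a second probe set with a change of 0.55, against the sign of its brighter one.

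Of the HSP110 genes, which recharge HSP70, HSPH1 fell. Its intensities were 628, 813 and 829 at 1 month, against 475, 346 and 314 at 24 months. The ages did not overlap, and the change was -0.98 ± 0.20, or 1.97-fold lower, with an adjusted p of 0.0186 by limma. The call was lost without the 24-month pools 3 or 4, where p reached 0.0856. A far dimmer probe set of HSPH1, called present on 3 arrays, gave 0.32 with an adjusted p of 0.279, and the mean over both tested probe sets gave -0.33 with an adjusted p of 0.22 by limma, without a call. HSPA4, the other HSP110 gene, had 479, 601 and 465 against 406, 420.3 and 441, also with the younger pools higher, but with a change of -0.27 ± 0.14 and an adjusted p of 0.218.

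The 22 J protein genes had a median change of 0.10, and 1 rose while 0 fell. The riser was DNAJC9, a J protein that also handles histones, with 75.0, 63.2 and 58.6 at 1 month, against 92.3, 127 and 119 at 24 months. The ages did not overlap on this dim probe set, and the rise of 0.65 ± 0.16, or 1.57-fold, had an adjusted p of 0.032 by limma. The call was lost without the 1-month pool 2 or any 24-month pool, where p reached 0.13. Apart from DNAJC9 and DNAJC3, the changes of the other 12 C-type genes lay between -0.17 and 0.25. A dimmer probe set of DNAJC14 was called higher at 0.46 ± 0.13 with an adjusted p of 0.0492, while its brightest gave 0.06.

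The J proteins of types A and B, the general partners of HSP70, gave 0 calls in the limma fit over 8 genes. Of the 8, 2 had an unadjusted p under 0.05, beside 38.5% of all members and 33.8% of all 6423 genes. DNAJB1, the heat-inducible partner of HSPA1A, had 148, 99.2 and 60.0 at 1 month and 214, 181 and 157 at 24 months. All older pools were higher, and the change was 0.82 ± 0.28 with an adjusted p of 0.0855. A second probe set of DNAJB1 had overlapping ages and gave 0.39 with an adjusted p of 0.494. DNAJA1, a farnesylated J protein of the cytosol, had 513, 454 and 359 against 329, 274 and 311. All older pools were lower, and the change was -0.50 ± 0.17 with an adjusted p of 0.0767. DNAJA4 and DNAJB12 gave -0.65 ± 0.33 and 0.33 ± 0.16, with adjusted p of 0.2 and 0.183 and overlapping ages.

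The heat shock factors HSF1 and HSF2, and HSPBP1 and HSPBAP1, had 0 calls by limma. Of the 4, 1 had an unadjusted p under 0.05, beside 33.8% of all genes. HSF1, the main heat shock factor, had 225, 358 and 417 at 1 month, against 386, 355 and 302 at 24 months. The ages overlapped, and the change was 0.09 ± 0.23 with an adjusted p of 0.803 and a 95% confidence interval from -0.46 to 0.65. HSF2, a factor tied to development, had 415, 388 and 1022 against 281, 239.9 and 286. The younger pools were all higher, pool 3 by far, and the change was -0.99 ± 0.35 with an adjusted p of 0.0939. Without the 1-month pool 3 it was -0.55 and called lower by limma at an adjusted p of 0.0285. HSPBP1, a nucleotide exchange factor of HSP70, and HSPBAP1, named for binding a small heat shock protein, gave -0.07 ± 0.14 and 0.19 ± 0.30, with adjusted p of 0.762 and 0.682.

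**Figure D3:**
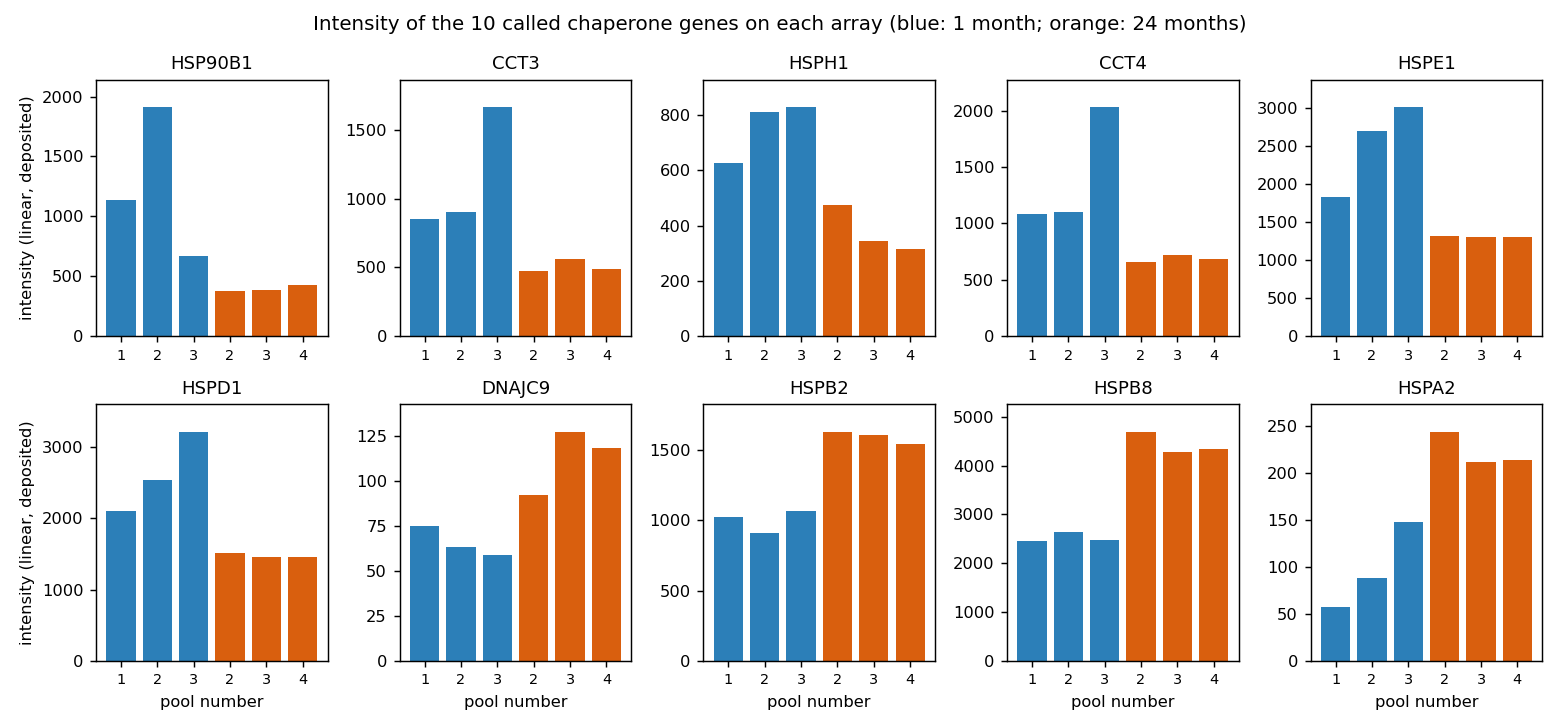
Bars give the linear deposited intensity of the 10 called genes on each of the 6 arrays, in blue for the pools of 1 month and in orange for those of 24 months, on axes that start at 0. For each gene the pools of the ages do not overlap, and the 24-month pools lie closer together than the 1-month pools in HSPE1, HSPD1, HSP90B1, CCT3 and CCT4.

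Members varied more among the young pools than among the old. The median SD within an age was 0.40 at 1 month and 0.09 at 24 months over the 52 members, and 0.27 and 0.11 over all 6423 genes. The SD was larger at 1 month in 47 members, or 90.4%, beside 83.5% of all genes. The limma fit used a common variance for both ages, so its standard errors and p-values assume an equal spread that these values do not show. The 1-month pool farthest from the middle of its age was pool 3 for 24 members, pool 1 for 17 and pool 2 for 11, and over all 6423 genes the order was the same, with 2416, 2151 and 1856. Read by class, the median over cytosolic chaperonin genes of the difference from each gene's mean was -0.04, 0.24 and 0.84 in the 1-month pools 1, 2 and 3 and -0.37, -0.30 and -0.42 in the 24-month pools. The same measure for small heat shock proteins was -0.49, -0.31 and 0.03 at 1 month and 0.35, 0.25 and 0.26 at 24 months. In both classes the 1-month pool 3 was the highest of its age, so that it lay nearest to the older pools for small heat shock proteins and farthest from them for the chaperonins.

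**Figure D4:**
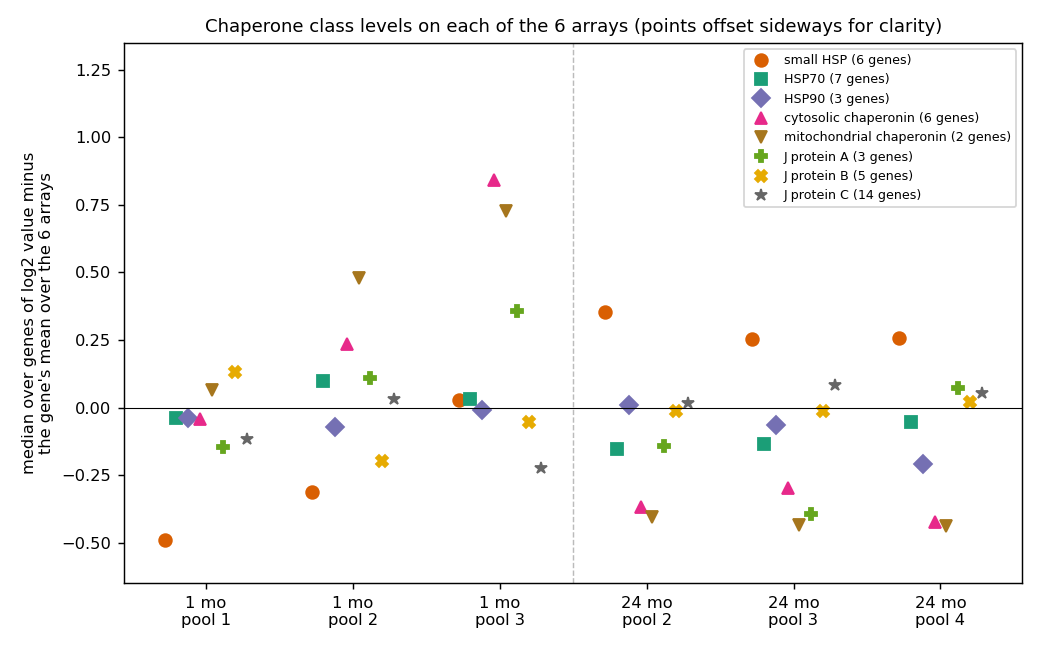
For 8 chaperone classes, the median over genes of the log2 value minus the gene's mean is drawn on each of the 6 arrays. Within 1 month both chaperonin classes span a wide range with pool 3 at the top, whereas at 24 months each of these 2 classes takes similar values on its 3 arrays.

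Array quality moved with these differences. With the actin 3' to 5' ratio as a covariate, limma called 10 members, 1 higher and 9 lower, while the probe sets called over the whole array went from 19% to 7.54%. Of the 10 members, 4 were shared with the fit without the ratio: CCT3, CCT4, HSPD1 and HSPE1. The chaperonin changes were larger in this fit, with CCT3 at -2.16 and an adjusted p of 0.0178, and CCT5, CCT6A, CCT2, HSF2 and DNAJC3 were called lower as well. DNAJB1 was called higher, at 2.01 with an adjusted p of 0.021. HSPB8 and HSPB2 were not called in this fit, with changes of 0.81 and 0.57 and adjusted p of 0.0865 and 0.19. HSPA2 gave -0.07, HSP90B1 gave -0.55 and the small heat shock protein median became -0.42, so the upward lean of that class turned. The ratio ran from 0.46 to 0.85 at 1 month and from 0.22 to 0.26 at 24 months. Its slope thus rested mainly on the order of the 1-month pools, and the changes in this fit extrapolate from it. A larger change in this fit is therefore not a firmer one. The ratio did not overlap between the ages, and the contribution of each cannot be told apart.

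**Figure D5:**
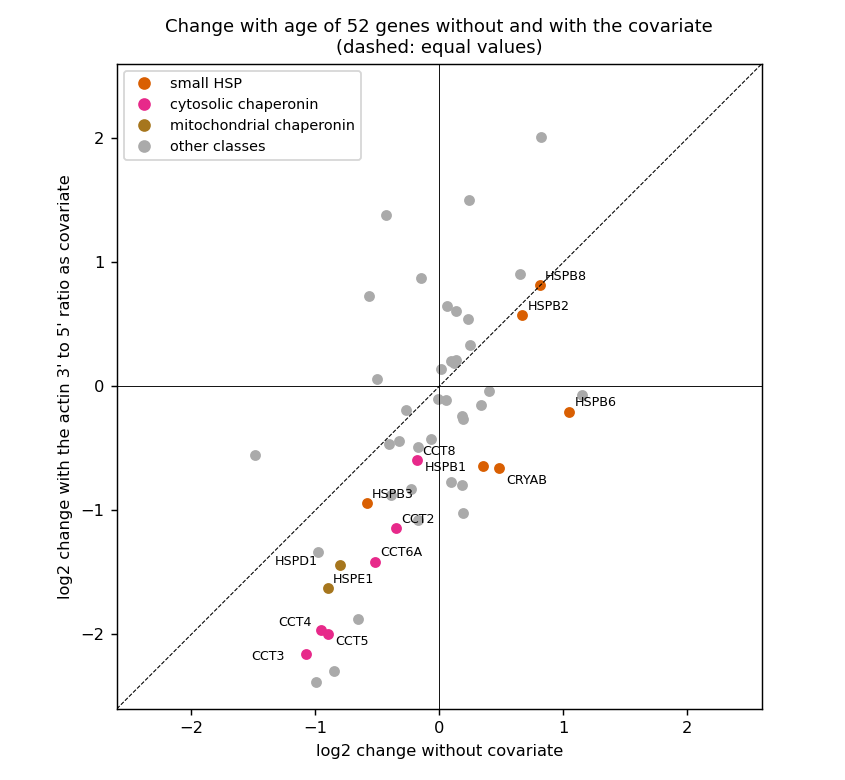
Each point is 1 of the 52 genes, with the log2 change of the fit without covariates on the horizontal axis and that of the fit with the actin 3' to 5' ratio on the vertical axis. The chaperonin genes lie below the diagonal, and HSPB8 lies close to it, at 0.81 in both fits.

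Genes that work with the members, listed apart from them, gave further values. Of 41 cochaperones outside the naming rule 34 were tested, with a median change of -0.05, and 3 rose while 1 fell. Over all genes, 11.3% were called higher and 5.78% lower. UNC45B, the myosin chaperone of muscle that works with HSP90, rose by 0.74 ± 0.12 with an adjusted p of 0.00956, from 1122, 1197 and 1079 to 1813, 1948 and 1934. TTC4 and BAG5, which bind HSP90 and HSP70, rose by 0.83 ± 0.13 and 0.67 ± 0.13, with adjusted p of 0.00998 and 0.0185 by limma. HYOU1, the HSP110-like exchange factor of BiP, fell from 276, 318 and 164 to 118, 115 and 121, a change of -0.96 ± 0.23 with an adjusted p of 0.033 by limma. BAG3, the partner of HSPB8, gave -0.11 ± 0.16 with an adjusted p of 0.642.

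Of 19 genes of the reticulum stress response 13 were tested, with a median change of -0.09. ATF4, a transcription factor of the stress response, was the 1 called, with a rise of 1.33 ± 0.18 and an adjusted p of 0.00661 by limma. MANF, a small secreted reticulum protein, had 989.5, 2015 and 462 against 323, 409.9 and 342, which is the same order of the younger pools as in HSP90B1, and a change of -1.41 ± 0.48 with an adjusted p of 0.0808. Of 11 tested immediate early genes, which respond quickly to handling or stress, 5 rose and 0 fell, with a median of 1.01 and FOS at 4.18 ± 0.29 with an adjusted p of 0.00196. Of 8 tested slow fibre genes 4 rose and 0 fell, with a median of 0.58. MYH7, the slow myosin heavy chain, was at 1.13 ± 0.12 with an adjusted p of 0.00407. Beside the counts of these lists, 11.3% of all genes were called higher and 5.78% lower. The part of handling or fibre type in the chaperone changes was not tested.

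The 4 member genes that did not pass the filter were DNAJB2, DNAJB11, DNAJC6 and DNAJC22. DNAJB2, a J protein with a form enriched in nerve, was called present on 2 arrays and had 332 to 376 at 1 month and 389 to 458 at 24 months. DNAJB11, a partner of BiP, was called present on 0 arrays despite intensities of 365 to 427 at 1 month and 575 to 730.1 at 24 months. DNAJC6 and DNAJC22 were called present on 0 arrays and were dim, between 14.7 and 32.9. Of the 52 tested genes, 47 were called present on all 6 arrays.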

How the data were processed

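RNA pools of 3 bulls were measured on 6 arrays, 1 per pool, and ages and pool numbers were taken from the labels. The main deposited table carries the name of the program dChip, and its linear intensity values had been normalized across arrays by the authors. For the program's version, background correction and normalization the sources used here say nothing. Detection calls for all arrays and detection p-values for the 1-month arrays were deposited by the authors in the same table. A second deposited table of intensity values on an unstated scale, quantile normalized here, served as an alternative.

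Probe sets were named from the platform annotation, and 51 of the 52 member genes matched RefSeq's table by gene identifier. Of 24128 probe sets, 112 controls were left out, and the 13204 called present on at least 3 of 6 arrays were tested on log2(intensity + 16) with limma 3.58.1 (lmFit and eBayes) in R 4.3.3, with age as the only term. Tests were two-sided, and p-values were adjusted by Benjamini-Hochberg over these 13204, with calls at an adjusted p under 0.05, and every adjusted p in the text comes from limma. The offset makes folds of dim probe sets too small. Signals of different probe sets were compared to pick and describe brighter and dimmer probe sets, and were summed over cell type markers. They were not read as levels of different genes against each other. The script was tested on simulated data.

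Named genes are all called members and the 2 with the smallest p in each class. Further genes were picked for naming after seeing their values. The members and lists were chosen with earlier results of these data known. Nothing in the labels says more of the pools than that each holds 3 bulls, so p-values measure the spread between pools. No read depth exists for arrays, whose number limits precision. Pools share numbers 2 and 3 across ages, but no label says that a number marks shared animals, so the numbers were not taken to pair them. The deviations of these pools correlated at -0.18 and 0.04, which cannot show whether pools were paired.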

Additional observations from a re-analysis of the deposited data

How the results depend on the processing

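Of the 10 called members, 10 stayed called under median centring, quantile normalization, offsets of 1 and of 50, all probe sets tested without a filter and an intensity trend with robust variance, 9 with present calls required on all 6 arrays or with the mean over a gene's probe sets, and 8 in the second deposited table.

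With a replicate block 0 members were called by limma, 0 higher and 0 lower, while 0.977% of all probe sets were called. At an unadjusted p under 0.05 by limma were 18 members, beside 20 in the main fit. Only pool numbers 2 and 3 occur at both ages, so the other pools added nothing to this estimate of the age change. Few degrees of freedom remained, so the lost calls cannot show whether pools are paired. The block gave a median of -0.35 for HSP70 and changes of -0.06 for HSF1, -0.0075 for HSPBAP1, -0.04 for DNAJA3 and 0.08 for DNAJB5. It changed the call of each called member.

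Leaving out 1 array gave 1 to 18 calls, 1 to 7 higher and 0 to 11 lower. Over these fits the median ran from -0.30 to -0.05 for HSP70, -0.32 to 0.10 for HSP90 and -0.08 to 0.13 for type B J proteins. Changes of named genes that crossed 0 ran from -0.05 to 0.10 for HSPA8, -0.15 to 0.27 for HSF1, -0.0046 to 0.55 for HSPBAP1, -0.05 to 0.41 for DNAJA3, -0.04 to 0.26 for DNAJC14, -0.17 to 0.00063 for HSPBP1 and -0.32 to 0.10 for HSP90AB1.

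The actin covariate left 1 member called higher. It gave medians of -0.35 for all members, -0.07 for HSP70, -0.55 for HSP90, -0.79 for J proteins of type A, 0.27 for type C, -1.69 for the cytosolic chaperonin and -0.42 for small heat shock proteins. Of the 52 members 36 kept their direction, and among the genes named in the text signs turned for HSF1 at -0.77, HSPA1A at -0.04, HSPA2 at -0.07, HSPA5 at 0.72, HSPBAP1 at -1.02, DNAJA1 at 0.06, DNAJA3 at -0.79, DNAJC11 at -0.24, DNAJB12 at -0.15, DNAJB5 at 1.38, CRYAB at -0.66, HSPB1 at -0.64 and HSPB6 at -0.20.

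Quantile normalization kept the direction of 49 of 52 members and gave medians of -0.12 for all members, -0.39 for HSP70 and -0.35 for HSP90, and changes of -0.09 for HSPA8 and -0.02 for HSF1. Present calls on all 6 arrays gave -0.17 for all members and -0.31 for HSP70. The second deposited table kept the direction of 45 and gave -0.15 for all members, -0.35 for HSP70 and 0.01 for type C J proteins, and changes of -0.20 for HSPA1A, -0.16 for HSPBAP1, -0.0091 for DNAJC19 and 0.19 for HSPBP1. The mean over a gene's probe sets gave 0.01 for HSP70 and 0.08 for HSPA14, and HSPH1 lost its call at -0.33 with an adjusted p of 0.22. The cause of these shifts was not tested.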
